A study of Mus musculus with 6 samples.

Results

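The genes described here are 10 genes of cytotoxic granules and natural killer (NK) receptors, chosen by name among the 55538 features of the count table. They are *Gzma*, *Gzmb*, *Prf1* and *Nkg7* of the granule, the chemokine gene *Ccl5*, the receptor genes *Klrd1*, *Klrc1* and *Klrk1*, and the transcription factor genes *Eomes* and *Tbx21*. All 10 had UMIs (unique molecular identifiers, counts of captured RNA molecules, here read from their 5′ ends, so that counts do not scale with gene length). Their levels were read in lymphocyte classes that were cut on a few marker counts, with B cells and macrophages for contrast.

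The data are droplet single-cell RNA-seq of resident peritoneal cells from C57BL/6 mice of 8 to 12 weeks. Cells that stuck to plastic for 1 h were kept, and they then received fresh medium (control), or were cultured for 2 h or 6 h with UV-treated apoptotic human Jurkat T cells carrying GFP. The genotypes were MerTK +/+ (WT) and MerTK -/- (MerKD, a germline loss of the engulfment receptor MerTK). There was 1 library per genotype and condition, 6 in all, with the cells of 3 mice pooled in each. The 6 libraries share strain and adhesion, and 1 library per group allows no replicate check. Barcodes carry a library number from 1 to 6. No source used here ties these numbers to genotype or time, so no genotypes or time points are compared. Values are given over the pool, with their range over library numbers.

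Cytotoxic lymphocytes, chiefly NK cells and CD8 T cells, kill by releasing granules onto a target. Perforin (*Prf1*) forms pores, and granzymes A and B (*Gzma*, *Gzmb*) are the proteases that enter and cleave proteins in the target, while NKG7 is a granule membrane protein that takes part in release. CCL5 is a chemokine that these cells store and secrete. CD94 (*Klrd1*) pairs with NKG2A (*Klrc1*) as an inhibitory receptor for the class I molecule Qa-1, and NKG2D (*Klrk1*) is an activating receptor for stress ligands. The T-box factors Eomesodermin (*Eomes*) and T-bet (*Tbx21*) govern the development of NK cells and effector CD8 T cells.

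In the GENCODE annotation of GRCm38, the 3 receptor genes lie together on chromosome 6 in the order *Klrd1* (129591782 to 129598775), *Klrk1* (129610323 to 129623864) and *Klrc1* (129666015 to 129678973), within 87.2 kb. *Ccl5* (83525778 to 83530518) and *Tbx21* (97098071 to 97115331) are both on the minus strand of chromosome 11. The other 5 genes are on separate chromosomes: *Gzma* on 13 (113093825 to 113100981), *Gzmb* on 14 (56258838 to 56262260), *Prf1* on 10 (61297833 to 61304680), *Nkg7* on 7 (43437073 to 43438249) and *Eomes* on 9 (118478212 to 118486132). All are protein-coding. UMIs were counted over whole genes, so levels are of genes and not of isoforms, and *Klrc1* has a close paralog, *Klrc2*, whose 5′ reads may be hard to tell from its own.

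The promoters of the 4 granule genes are shown because they encode the contents and the membrane of the granule that the results turn on. The RefSeq promoter table used here holds 8 of the 10 genes. Each line holds the 250 bases before the RefSeq start on GRCm38.p6, read 5′ to 3′ on the strand of the gene. Capitals mark AGGTGT, the half-site that T-box factors bind, and TGTGGT, the RUNX site, or their reverse complements. The stretches are chr13:113100982-113101231 (minus strand) for *Gzma*, chr14:56262335-56262584 (minus) for *Gzmb*, chr10:61297586-61297835 (plus) for *Prf1* and chr7:43436888-43437137 (plus) for *Nkg7*.
Gzma: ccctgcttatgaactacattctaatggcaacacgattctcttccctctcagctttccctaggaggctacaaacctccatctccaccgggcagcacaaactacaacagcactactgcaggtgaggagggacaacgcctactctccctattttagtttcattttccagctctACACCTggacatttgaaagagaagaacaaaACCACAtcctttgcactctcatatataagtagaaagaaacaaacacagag
Gzmb: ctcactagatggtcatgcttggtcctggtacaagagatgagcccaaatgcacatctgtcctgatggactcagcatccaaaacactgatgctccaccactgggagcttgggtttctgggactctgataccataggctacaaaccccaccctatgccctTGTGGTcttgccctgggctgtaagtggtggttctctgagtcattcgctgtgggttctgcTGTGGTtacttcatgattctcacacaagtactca
Prf1: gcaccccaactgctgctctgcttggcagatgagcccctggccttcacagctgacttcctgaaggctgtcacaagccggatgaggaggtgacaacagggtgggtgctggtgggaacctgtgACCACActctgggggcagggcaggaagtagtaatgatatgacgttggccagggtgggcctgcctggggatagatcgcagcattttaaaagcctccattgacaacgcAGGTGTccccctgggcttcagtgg
Nkg7: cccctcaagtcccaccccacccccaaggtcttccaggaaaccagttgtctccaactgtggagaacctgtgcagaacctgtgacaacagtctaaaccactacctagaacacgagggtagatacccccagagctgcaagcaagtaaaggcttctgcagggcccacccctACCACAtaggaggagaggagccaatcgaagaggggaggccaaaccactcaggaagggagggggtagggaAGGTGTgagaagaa
On either strand of the 300-base window, which adds 50 bases after the start, AGGTGT was found in 3 of the 8 promoters (*Gzma*, *Prf1* and *Nkg7*) and in 13.7% of all 32851 promoters. TGTGGT was found in 6 of 8 (the 4 shown, *Klrc1* and *Klrk1*) and in 16.8% of all. The extended site AGGTGTGA, which contains AGGTGT, was in *Nkg7* alone and in 1.28% of all promoters. AGGAAG, the ETS core, was in 3 of 8 and 35.4% of all, TGACGT in 2 of 8 and 7.51%, and TATAAA in 1 of 8 and 13.6%. In *Prf1* and *Nkg7* AGGTGT starts 24 and 14 bases before the RefSeq start, and in *Gzma* its reverse complement starts 80 bases before. The RefSeq start of *Nkg7* lies within the GENCODE gene given above, and so does this AGGTGT. *Gzmb* holds TGTGGT at 93 and 34 bases before its RefSeq start, which lies upstream of its GENCODE start. These matches describe the letters and were not tested for binding.

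Of 7760 barcodes, 7665 passed the limits on genes and mitochondrial UMIs, with 953 to 1608 cells and 4234786 to 10287079 UMIs per library. The labels name the cells peritoneal macrophages, but 3101 (40.5%, 39.4–41.6%) were B cells by at least 4 UMIs of *Cd79a* and *Cd79b*, against 2028 macrophages (26.5%, 25.5–27.5%) by at least 2 of *Csf1r* and *Adgre1*. Both rules held for 56 cells. Lymphocytes were the cells with at most 2 of the first pair and 0 of the second. Among them, 141 cells with at least 2 UMIs of *Cd3d*, *Cd3e* and *Cd3g* and at least 1 of *Cd8a* or *Cd8b1* were CD8 T cells, and 116 with *Cd4* were CD4 T cells, with 1 cell in both. A further 246 T cells had neither coreceptor. The CD3-negative class held 61 cells with no *Cd3* UMI and at least 3 UMIs of the 10 genes. Library numbers gave 8 to 12 CD3-negative cells, 7 to 54 CD8 T cells and 2 to 49 CD4 T cells, so the lowest T cell values rest on few cells. Median depths were 2467 UMIs for CD3-negative cells, 2920 for CD8 T cells, 2775.5 for CD4 T cells, 5561 for B cells and 5226.5 for macrophages. Of the barcode sequences, 28 occurred in more than 1 library, in 2 CD8 T cells and no other lymphocyte class.

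Because the CD3-negative class was cut on the 10 genes, their level in it is a description. Near the limit of 3, there were 31 *Cd3*-free lymphocytes with a sum of 2 and 72 with a sum of 1, against 5 with a sum of 3, 4 with a sum of 4 and 45 with 8 or more. All 9 NK markers examined were found in at least 10% of the 61 cells, though *Tyrobp* and *Fcer1g* among them were also in 96.8% and 94.2% of macrophages. *Ncr1* (NKp46) was at 95.3 CPM (CPM, the UMIs of a gene scaled to the summed UMIs of the class, per 1000000; 95% interval 56.5–151) there, and at 0 in CD8 and CD4 T cells. *Csf1r*, *Adgre1*, *Mertk* and *C1qa* were at 0, the first 2 by the rule, yet the 6 macrophage markers summed to 1244 CPM (0 to 3609 by library number) and the 7 dendritic cell (DC) markers to 858 CPM (29.5 to 1473). The class was thus not uniform, and it is divided further on.

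*Ccl5* had the most UMIs of the 10 in all 6 classes. In CD3-negative cells its level ranged over library numbers from 2324 to 12103 CPM with a median of 8398, and over the pool it was 6469.9 CPM (6112–6843). UMIs of *Ccl5* were in 58 of the 61 cells (95.1%, 86.3–99.0%). Library numbers 1 and 6 were the low ones, at 2324 and 3454 CPM. When cells were instead chosen on the other 9 genes, which removes *Ccl5* from its own selection, 39 cells remained and *Ccl5* was at 8869 CPM in them, in 36 of 39 cells.

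*Gzma*, the granzyme with trypsin-like cleavage, was second, at 1059 CPM (917–1216) in CD3-negative cells. Its values by library number were 51.6 at the lowest, 1127 at the median and 1624 CPM at the highest. All but 1 of the 6 values lay at or above 697 CPM, and library number 6 stood alone, with 1 UMI in 9 cells. *Gzma* was in 26 of 61 cells (42.6%, 30.0–55.9%), with a median of 6 and at most 54 UMIs per positive cell. Of all its 271 UMIs in kept cells, 73.8% were in this class, more than for any of the other 9 genes. The choice of cells on the other 9 genes gave the same 61 cells and 1059 CPM.

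*Gzmb*, the aspartate-cleaving granzyme, was at 26.5 CPM (8.60–61.8), from 5 UMIs in 5 cells. *Prf1* was at 111 CPM (68.8–170), from 15.2 to 443 CPM by library number with a median of 99.6, and had a UMI in all 6. *Nkg7* was at 196 CPM (138–270), from 0 to 443 with a median of 185, and only library number 6 had none. The CD3-negative cells therefore held far more *Gzma* than *Gzmb* UMIs (200 against 5), although counts of different genes also depend on capture.

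The receptor genes followed. *Klrk1* was at 397 CPM (312–498), ranging by library number from 103 to 648 with a median of 423. *Klrd1* was at 291 CPM (219–379), from 155 to 413 with a median of 272, and was in 33 of 61 cells. *Klrc1* was at 159 CPM (107–227) but in only 11 cells, with up to 11 UMIs in 1 cell. *Klrd1* and *Klrk1* were in every library number and *Klrc1* in 5. Of the T-box genes, *Eomes* was at 138 CPM (89.9–202), from 51.6 to 249 with a median of 115, in 17 cells and in all 6 library numbers. *Tbx21* was at 37.1 CPM (14.9–76.4), in 4 cells and 3 library numbers, and 4 of its 7 UMIs were in 1 cell.

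**Figure D1:**
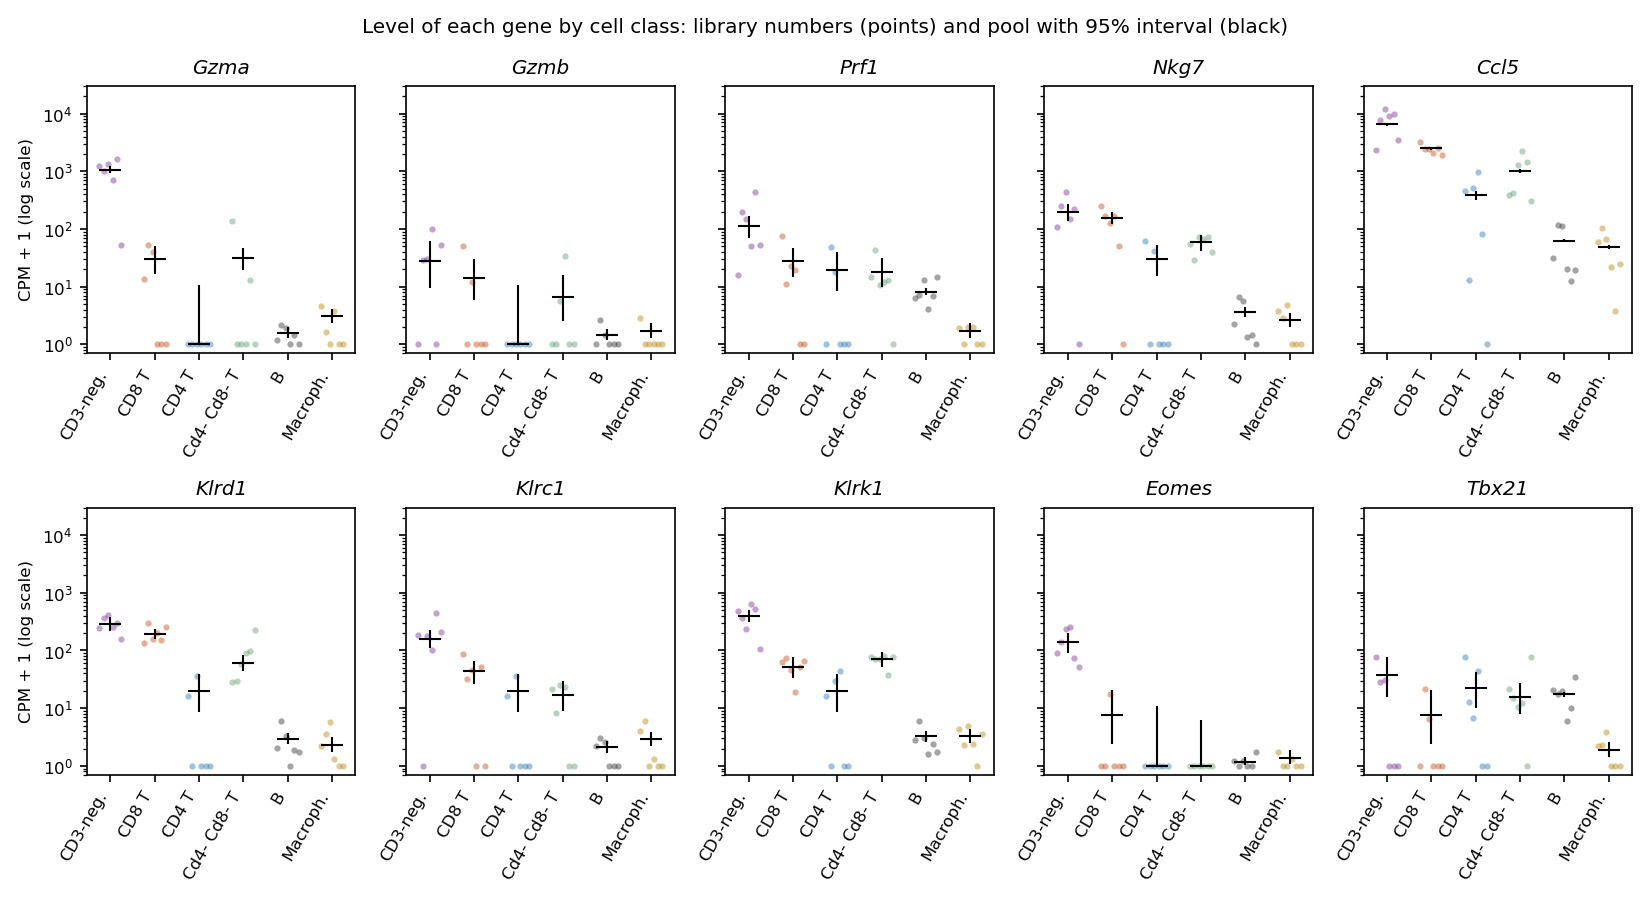
Level of each of the 10 genes (CPM + 1, log axis) in 6 cell classes. Coloured points are library numbers 1 to 6 from left to right, and black marks are the pool with its exact Poisson 95% interval. *Ccl5* is highest in every class, *Gzma* and *Eomes* drop from CD3-negative to CD8 T cells, and *Tbx21* in B cells (16.4 CPM) lies within the range of the lymphocyte classes.

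CD8 T cells carried mostly *Ccl5*, *Klrd1* and *Nkg7*. *Ccl5* was at 2523 CPM (2379–2674), and the 6 library numbers lay close together, from 1875 to 3246 CPM with a median of 2432. It was in 50 of 141 cells (35.5%, 27.6–44.0%), and 37 cells with 10 or more UMIs held 95.9% of its UMIs. *Klrd1* was at 193 CPM (155–238), from 136 to 297 with a median of 180, and was present in all 6 library numbers. *Nkg7* was at 153 CPM (119–194), from 0 to 247 with a median of 145, and was absent from the 7 cells of library number 6. *Klrd1* was in 34.8% of CD8 T cells (26.9–43.2%) and *Nkg7* in 34.0% (26.3–42.5%). The effector granule genes were scarce in these cells. *Gzma* had 13 UMIs in 6 cells (28.9 CPM, 15.4–49.4), *Gzmb* 6 UMIs in 3 cells (13.3 CPM, 4.89–29.0) and *Prf1* 12 UMIs in 12 cells (26.7 CPM, 13.8–46.6). *Eomes* and *Tbx21* had 3 UMIs each in 141 cells.

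Whether the 10 genes separate CD8 from CD4 T cells was asked next, since these classes were not cut on them. A gene was counted as higher where the exact 95% interval of the ratio of CPM, which covers counting error only, lay above 1. There were 5 of the 10 genes higher in CD8 than in CD4 T cells (all but *Eomes* passed a mean of 5 CPM over both classes), against 3.04% of the 9268 genes tested, and none was lower, against 5.01%. *Klrd1* differed most, with a log2 ratio of 3.38 (2.28 to 4.74) and higher values in 6 of 6 library numbers. *Ccl5* had a log2 ratio of 2.73 (2.48 to 2.99), with 381 CPM in CD4 T cells, and was higher in 6 of 6. *Nkg7* had 2.40 (1.47 to 3.47), and *Klrk1* 1.46 (0.20 to 2.93), each higher in 5 of 6. *Gzma* had no UMI in any of 116 CD4 T cells. Taking 3 as the most cells that a count of 0 allows, at most 2.59% had a UMI. The exact 95% interval of this share reached 3.13%. With a floor of 3 UMIs over the class put for this 0, *Gzma* was 3.64-fold higher in CD8 T cells. The exact interval of the ratio, which uses the count of 0, began at 2.56, and *Gzma* was higher in 3 of 6 library numbers. The median log2 ratio of the 7 genes with UMIs in both classes was 1.46, beside -0.08 for all genes tested. Without library number 3 the log2 ratio of *Gzma* with the floor was 0.60, against 1.86 with all 6, and counting error no longer separated it. Without library number 1 or 2 the same held for *Klrk1*, at log2 ratios of 1.35 and 0.93.

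The remaining 5 genes were not separated by counting error between CD8 and CD4 T cells. *Prf1* was at 18.5 CPM in CD4 T cells (log2 ratio 0.53, -0.94 to 2.11) and *Klrc1* at 18.5 CPM (1.19, -0.12 to 2.68). *Klrc1* was separated only without library number 3 (3.06). *Gzmb* and *Eomes* had no UMI in CD4 T cells and 6 and 3 in CD8 T cells, and *Gzmb* crossed the limit without library number 4 or 6 (0.84 and 0.77). *Tbx21* had 8 UMIs in CD4 and 3 in CD8 T cells (-1.67, -4.22 to 0.39), and -3.07 without library number 2, where it was lower in CD8 T cells. Counted by size instead, 6 genes (those 5 and *Klrc1*) were at least 2-fold higher in CD8 T cells, against 8.99% of the genes tested. Summed over the 10 genes, CD8 T cells had 3045 CPM and CD4 T cells 505 CPM, a log2 ratio of 2.59 (2.37 to 2.82). Leaving out *Ccl5* made it 2.07 (1.61 to 2.55).

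Between CD3-negative and CD8 T cells, 8 of the 10 genes were higher in the former, against 13.7% of the 9715 genes tested, which the choice of the class on these genes made likely. By size, 7 were at least 2-fold higher, against 19.6%. *Gzma* had the largest log2 ratio, 5.20 (4.39 to 6.13), followed by *Eomes* at 4.37 (2.66 to 6.74) and *Klrk1* at 2.96 (2.27 to 3.70), each higher in 6 of 6 library numbers. *Tbx21* was at 2.48 (0.34 to 5.06), *Prf1* at 2.06 (0.97 to 3.22), *Klrc1* at 1.91 (1.04 to 2.82), *Ccl5* at 1.36 (1.24 to 1.48) and *Klrd1* at 0.59 (0.08 to 1.10). *Gzmb* (0.99, -1.06 to 2.97) and *Nkg7* (0.35, -0.26 to 0.95) were not separated, and without library number 1 they were, at 2.91 and 0.88. The *Klrd1* difference was no longer separated without library number 3 (0.29), and that of *Tbx21* without library number 1 or 3 (1.00 and 2.38). With cells chosen on the other 9 genes *Tbx21* was at 16.5 CPM, from 3 UMIs, and was not separated either. The selection on *Ncr1*, *Klrb1c* and *Klre1*, which does not use the 10 genes, left 14 cells. There *Gzma* was at 2245 CPM (1824–2733), *Klrk1* at 748, *Klrd1* at 544, *Eomes* at 227 and *Gzmb* at 22.7 CPM (0.57–126), from 1 UMI.

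**Figure D2:**
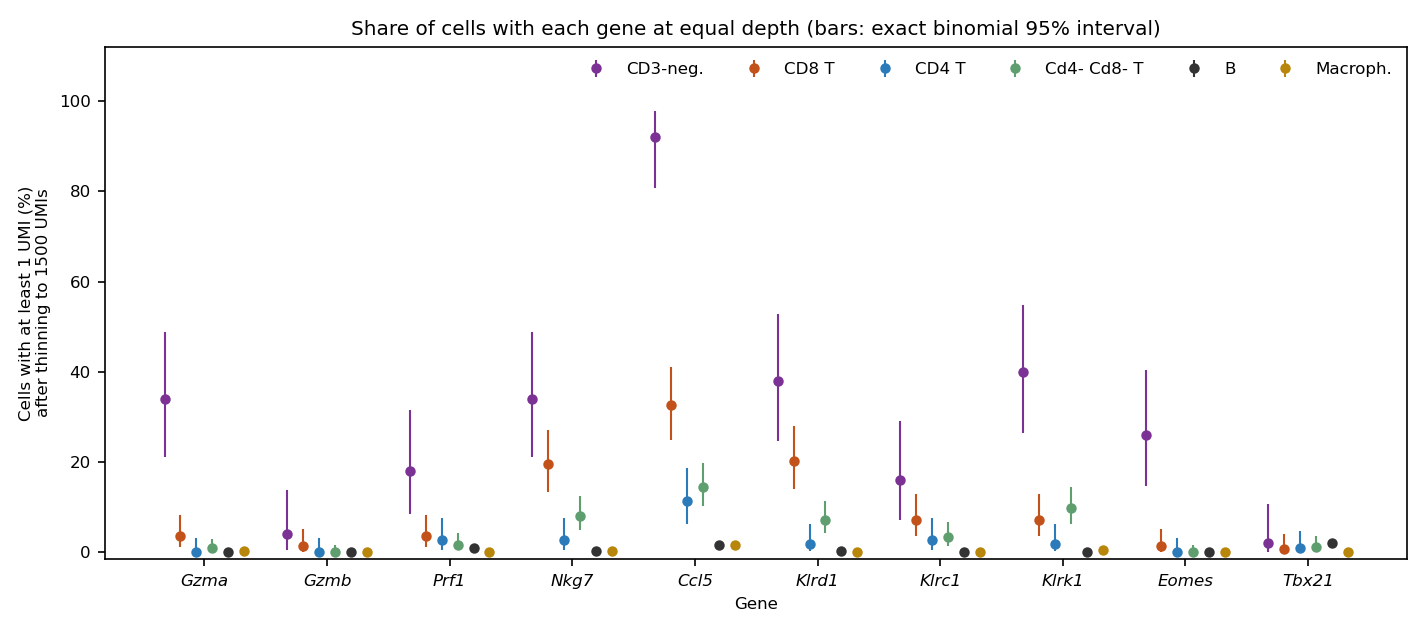
Share of cells with at least 1 UMI of each gene after every cell was thinned to 1500 UMIs, with exact binomial 95% intervals. At this equal depth *Ccl5* was in 92.0% of CD3-negative and 32.6% of CD8 T cells, *Gzma* in 34.0% and 3.62%, and *Nkg7* in 34.0% and 19.6%.

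The plot of thinned shares sets the classes side by side at equal depth. *Klrd1* was in 38% of CD3-negative cells (24.7–52.8%), 20.3% of CD8 T cells (13.9–28.0%) and 1.75% of CD4 T cells (0.21–6.19%). *Eomes* was in 26.0% of CD3-negative cells (14.6–40.3%) and 1.45% of CD8 T cells (0.18–5.14%). The thinning leaves out 11 CD3-negative, 3 CD8 and 2 CD4 T cells that were shallower. *Klrk1* was in 40.0% of CD3-negative cells (26.4–54.8%), 7.25% of CD8 T cells (3.53–12.9%) and 0.0653% of B cells.

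The 61 CD3-negative cells were divided by UMIs of 6 NK receptor genes that had not chosen them (*Ncr1*, *Klrb1c*, *Klre1*, *Klri2*, *Klra4* and *Klra8*). At least 1 such UMI was in 35 cells, and these held a median of 5 of the 10 genes, against 2 in the other 26. *Gzma* was at 1917 CPM (1645–2222) with and 247 CPM (158–368) without NK receptor UMIs. *Eomes* was in 16 of 35 and 1 of 26 cells, *Prf1* in 15 and 1, *Nkg7* in 18 and 3, and *Gzmb* in 5 and 0. *Ccl5* was in 35 of 35 and 23 of 26 cells, at 9423 and 3677 CPM, and 9 of the 26 held no other gene of the 10. *Klrk1* (21 of 35 and 11 of 26) and *Klrd1* (23 and 10) were also shared.

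Genes of other cell types went with that division. *Lyz2*, a macrophage and myeloid gene, was in 0 of the 35 cells and 11 of the 26, at 2194 CPM. *Ccr7*, a receptor of migrating DCs and naive T cells, was in 2 and 12 cells, *Fscn1*, a mature DC gene, in 0 and 4, and *Il7r* in 6 and 16. A T cell receptor constant gene (*Trac*, *Trbc1*, *Trbc2* or *Trdc*) was in 27 of the 35 and 7 of the 26. Of these, *Trac* was in 0 and 2 cells and *Trdc* in 5 and 0. Median depth was 2191 UMIs with and 3224.5 without NK receptor UMIs, so the cells with more of the 10 genes were not the deeper ones. The part that other cell types have in the levels of the 26 cells was not tested.

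**Figure D3:**
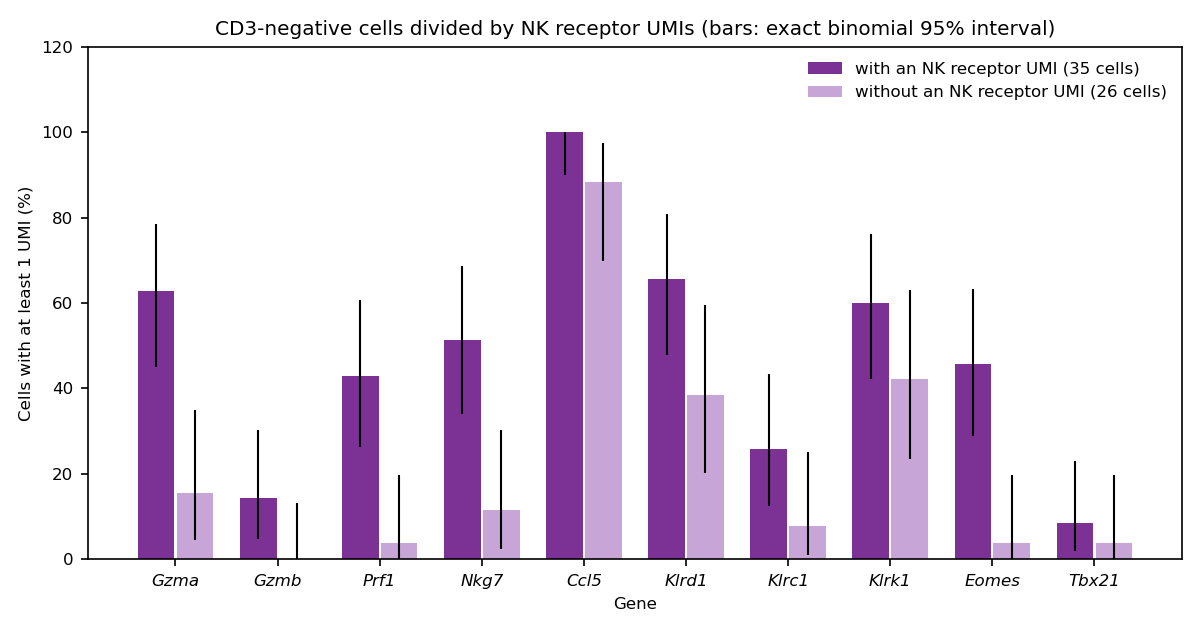
Share of CD3-negative cells with at least 1 UMI of each gene, for the 35 cells with and the 26 cells without UMIs of 6 NK receptor genes. *Gzma*, *Prf1*, *Nkg7* and *Eomes* differ most, from 62.9% to 15.4% for *Gzma*, while *Ccl5* is in nearly all cells of both groups.

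Co-detection within CD3-negative cells is a description, as these cells were chosen for their sum. *Prf1* was in 14 of the 26 cells with *Gzma* (53.8%, 33.4–73.4%) and 2 of the 35 without. *Nkg7* was in 16 of 26 and 5 of 35, *Eomes* in 13 and 4, *Klrd1* in 19 and 14, and *Ccl5* in 26 and 32. Of the 17 *Eomes* cells, 11 held *Nkg7* and 9 held *Prf1*. In CD8 T cells, *Klrd1* was in 28 of the 50 cells with *Ccl5* and 21 of the 91 without, *Nkg7* in 25 and 23, *Klrk1* in 13 and 1, and *Klrc1* in 11 and 0. At least 2 of the 10 genes were found in 80.3% of CD3-negative cells (68.2–89.4%), 34.8% of CD8 T cells (26.9–43.2%), 8.62% of CD4 T cells (4.21–15.3%), 2.26% of B cells (1.76–2.84%) and 1.13% of macrophages (0.72–1.70%).

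The CD8 T cells fell into 55 cells with at least 3 UMIs of the 10 genes, 40 with 1 or 2 and 46 with 0. Their median depths were 2759, 2882.5 and 3019.5 UMIs. *Ccl5* gave 1136 of the 1371 UMIs of the 10 genes in CD8 T cells. Only 5 of its 50 positive cells had 1 or 2 UMIs, so the division mostly follows *Ccl5*. Between the cells with 3 or more and those with 0, other genes can be compared, as they did not choose the cells. *Ly6c2*, a surface antigen of memory CD8 T cells, was in 34.5% (22.2–48.6%) against 2.17% (0.06–11.5%), and was higher in 5 of 6 library numbers. *Il2rb*, the shared IL-2 and IL-15 receptor chain, was at 335 against 133 CPM (log2 ratio 1.33, 0.57 to 2.14), higher in 6 of 6. *Hcst* (DAP10), the adaptor of NKG2D, was at 635 against 213 CPM and *Id2* at 255 against 100.1 CPM. *Gzmk* was in 20% of cells against 0 of 46 (at most 6.52% by the same limit, exact interval to 7.71%), higher in 4 of 6. *Cd44* was at 79.4 CPM (21.8% of cells) against 4.35% of cells, from 14 and 3 UMIs, and was higher in 3 of 6. *Il7r*, the IL-7 receptor of long-lived T cells, was at 437 against 260.1 CPM, higher in 6 of 6. Among genes of naive T cells, *Igfbp4* (85.1 against 407 CPM, higher in 0 of 6), *Tcf7* (533 against 720.4, log2 ratio -0.43, -0.85 to -0.02) and *Klf2* (408 against 654) were lower. *Tcf7* and *Klf2* were each higher in 2 of 6. *Il7r* was the higher one given above, and *Ccr7*, *Lef1* and *S1pr1* were not separated. Over all 9272 genes tested, 3.98% were higher and 1.94% lower.

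**Figure D4:**
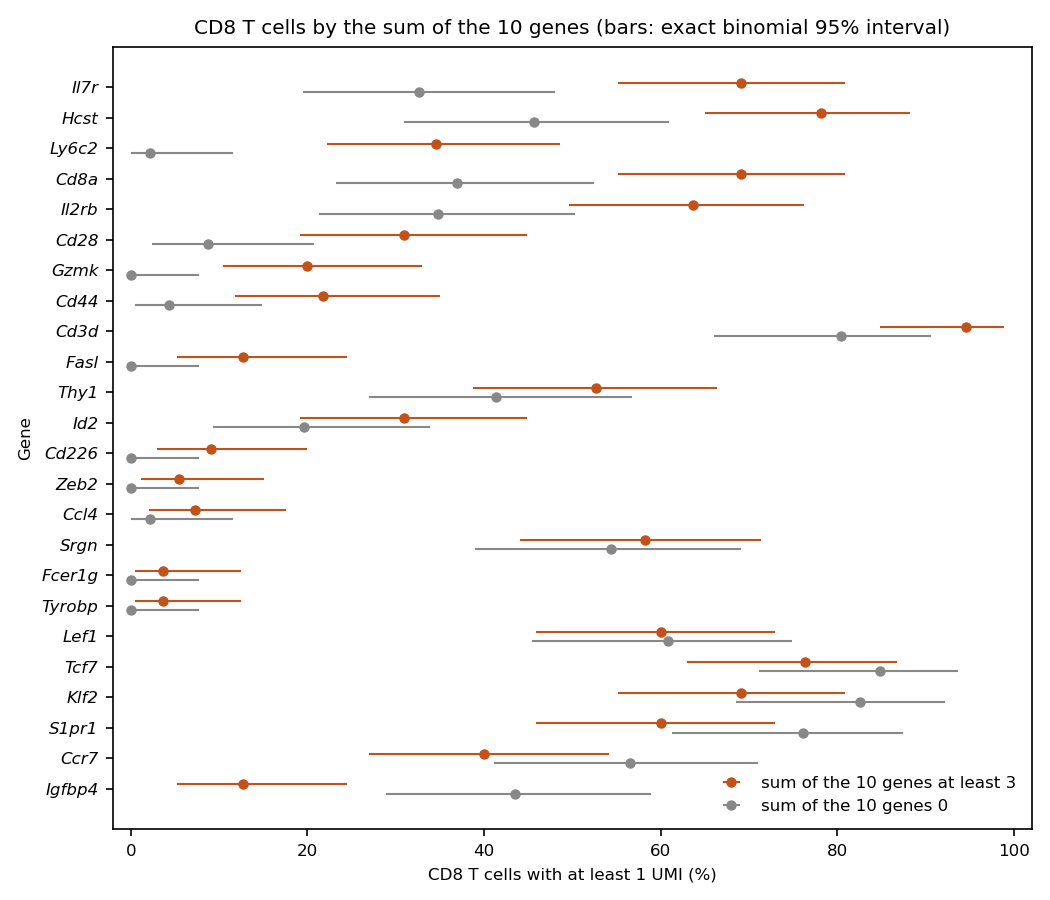
Share of CD8 T cells with at least 1 UMI of naive T cell genes and of the list and marker genes whose CPM differed beyond counting error, for cells with a sum of at least 3 over the 10 genes (55 cells) and cells with 0 (46). *Ly6c2* is in 34.5% against 2.17% and *Gzmk* in 20% against 0%, and *Igfbp4* is in 12.7% against 43.5%.

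The 10 genes with the largest ratio in that comparison were led by macrophage genes. *Ccl24*, *Ccl9*, *Lyz1*, *Lgals3*, *Wfdc17*, *Lyz2*, *Retnla* and *Il1rn* were high in few cells, as *Ccl24* was in 5.45% and *Lgals3* in 12.7% of the cells with a sum of 3 or more, and each was higher in at most 3 of 6 library numbers. The other 2 were *Ly6c2* and *S100a4*. The macrophage markers summed to 198 CPM over all CD8 T cells (0 to 408 by library number), and *Csf1r*, *Adgre1*, *Mertk* and *C1qa* were at 0. Their part in the CD8 T cell values was not tested.

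A list of 43 other cytotoxic and NK genes was examined by role. Between CD3-negative and CD8 T cells, 36 passed the mean of 5 CPM, 21 were higher and 2 (*Cd226* and *Cxcr6*) lower, where 13.7% of all genes tested were higher and 4.64% lower. Of 14 NK receptors 13 passed and 9 were higher, among them *Il2rb* (715 against 222 CPM). The Ly49 genes *Klra4* and *Klra7* were too, each with 30 UMIs against 0, or 23.8-fold with the floor of 3 UMIs (log2 interval from 4.19). The adaptors *Tyrobp* (1038 against 48.9 CPM) and *Fcer1g* (927 against 24.4) were higher, while *Hcst* was not separated (344 against 391). Of 10 granule genes 4 were higher, including serglycin, *Srgn* (1467 against 493), the matrix protein of granules, and *Lamp1* (185 against 51.1). *Ctsw* was at 175 and 122 CPM and was not separated. *Ccl4* (598 against 28.9) and *Ccl3* (381 against 4.44) came from 11.5% and 9.84% of the cells. *Id2* (863 against 169), *Zeb2* and *Prdm1* were the higher ones of 6 transcription factors, and *Runx3* (175 against 207) was not separated. Among naive T cell genes, *Igfbp4* (5.29 against 311 CPM), *S1pr1* (42.4 against 362), *Lef1* (52.9 against 375), *Klf2* (101 against 546) and *Tcf7* (222 against 657) were lower, and *Il7r* was not separated. *Ccr7* had more CPM (651 against 258) but was in fewer cells (23.0% against 51.8%), and 101 of its 123 UMIs were in the 26 cells without NK receptor UMIs.

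Between CD8 and CD4 T cells only 27 of the 43 passed, 5 were higher and 5 lower, where 3.04% of all genes tested were higher and 5.01% lower. The higher ones were *Gzmk* (40.0 against 7.93 CPM), *Ctsw* (122 against 60.8), *Cst7* (33.3 against 5.29), *Ccl4* and *Runx3* (207 against 135), the factor of the CD8 lineage. The lower ones were *Srgn*, *Id2*, *Cxcr6*, and the helper T cell factors *Gata3* (15.5 against 52.9) and *Rora* (15.5 against 68.7). Of the 14 NK receptors 5 passed and 0 were separated, and *Il2rb* was at 222 and 161 CPM.

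T cells without a coreceptor UMI lay between CD8 and CD4 T cells for *Ccl5*, *Klrd1* and *Nkg7*. For *Nkg7*, counting error did not separate them from CD4 T cells (log2 ratio of these over CD4 T cells 0.98, -0.008 to 2.09). *Ccl5* was at 1016 CPM (943–1094), *Klrk1* at 68.9 (50.8–91.4), *Klrd1* at 60.3 (43.5–81.5) and *Nkg7* at 57.4 CPM (41.0–78.2). *Klrk1* did not differ beyond counting error from CD8 T cells (log2 ratio of CD8 T cells over these -0.43, -1.22 to 0.31) and was higher than in CD4 T cells in 6 of 6 library numbers. *Gzma* had 21 UMIs, 20 of them in 1 of 2 positive cells. *Eomes* had none in 246 cells, which by the same limit is at most 1.22% of cells with a UMI (exact interval to 1.49%). Markers of gamma-delta and NKT cells summed to 154 CPM in these cells (49.6 to 496), against 13.3 in CD8 and 0 in CD4 T cells. Against CD4 T cells, 4 of the 10 genes were higher (*Gzma*, *Ccl5*, *Klrd1* and *Klrk1*) beside 2.68% of 9363 genes. The *Gzma* call came from the 1 cell with 20 UMIs. CD8 T cells were higher than the T cells without a coreceptor UMI for 4 (*Nkg7*, *Ccl5*, *Klrd1* and *Klrc1*) beside 3.09% of 9382. The latter had a median of 2490.5 UMIs, and a count of 0 does not show that a cell lacked a coreceptor. Even among CD8 T cells, *Cd8a* was in 69.1% of those with a sum of at least 3 over the 10 genes and 37.0% of those with 0. The part of CD8 or CD4 T cells with missed coreceptor UMIs in these levels was not tested.

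In B cells and macrophages most of the 10 genes were low. CD8 T cells were higher than B cells for 9 of the 10, against 17.1% of genes tested, and higher than macrophages for all 10, against 28.3%. *Eomes*, and against macrophages also *Tbx21*, did not pass the mean of 5 CPM. Each had 3 UMIs in CD8 T cells. *Eomes* was higher in CD8 T cells in only 1 library number and lower in 2, against B cells and against macrophages alike. CD3-negative cells were higher than B cells for 9 of the 10, against 19.9%, and than macrophages for 10, against 25.2%, as the choice of the class made likely. *Nkg7* was at 2.59 CPM in B cells and 1.64 in macrophages, and *Gzma* at 0.547 and 2.07.

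*Tbx21* was the exception. In B cells it was at 16.4 CPM (14.7–18.3), with 5.10 at the lowest, 17.9 at the median and 33.1 CPM at the highest library number, and the class held 76.7% of its 430 UMIs. In macrophages it was at 0.863 CPM (0.414–1.59), and B cells were higher in 6 of 6 library numbers (log2 ratio 4.25, 3.35 to 5.32). The share of cells was 6.90% (6.03–7.85%) in B cells and 0.247% (0.0801–0.574%) in macrophages, whose median depths are alike, and 2.06% against 0.100% after thinning. *Prf1* was at 7.21 CPM (6.09–8.49) in B cells, with 3.19, 5.97 and 13.6 CPM as lowest, median and highest values, and at 0.691 CPM in macrophages (log2 ratio 3.38, 2.37 to 4.62), higher in 6 of 6. For both genes the B cell values of all library numbers lay above all macrophage values. B cells were higher than macrophages for 48.6% of the 9418 genes that passed the mean of 5 CPM. Of the 10 genes, *Ccl5* and *Tbx21* passed it and both were higher, while *Prf1* did not pass. *Gzma* had 11 UMIs in B cells and 24 in macrophages, 14 of them in 1 cell.

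These 2 genes differed from *Ccl5* in the company they kept. Among B cells with *Ccl5*, 77.8% (66.4–86.7%) had a *Cd3* UMI, against 5.65% of those without, and 66.7% had another of the 10 genes. Among B cells with *Nkg7* 85.2% had a *Cd3* UMI. With *Tbx21* it was 14.0% (9.66–19.4%) against 6.82%, and with *Prf1* 21.2% (14.1–29.9%) against 6.79%, where the positive cells were also deeper (medians of 9211.5 and 9814 UMIs). When B cells with UMIs of T cells or macrophages were left out, *Tbx21* was at 16.5 CPM and *Prf1* at 6.76 CPM, while *Ccl5* fell from 62.0 to 3.74 CPM. Of the 32 B cells with 10 or more *Ccl5* UMIs, 29 had a *Cd3* UMI. *Ccl5* in macrophages went from 48.6 to 27.9 CPM, and 8 of 19 macrophages with 10 or more UMIs had a *Cd3* UMI. Droplets with RNA of 2 cells cannot be told apart from such cells here.

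**Figure D5:**
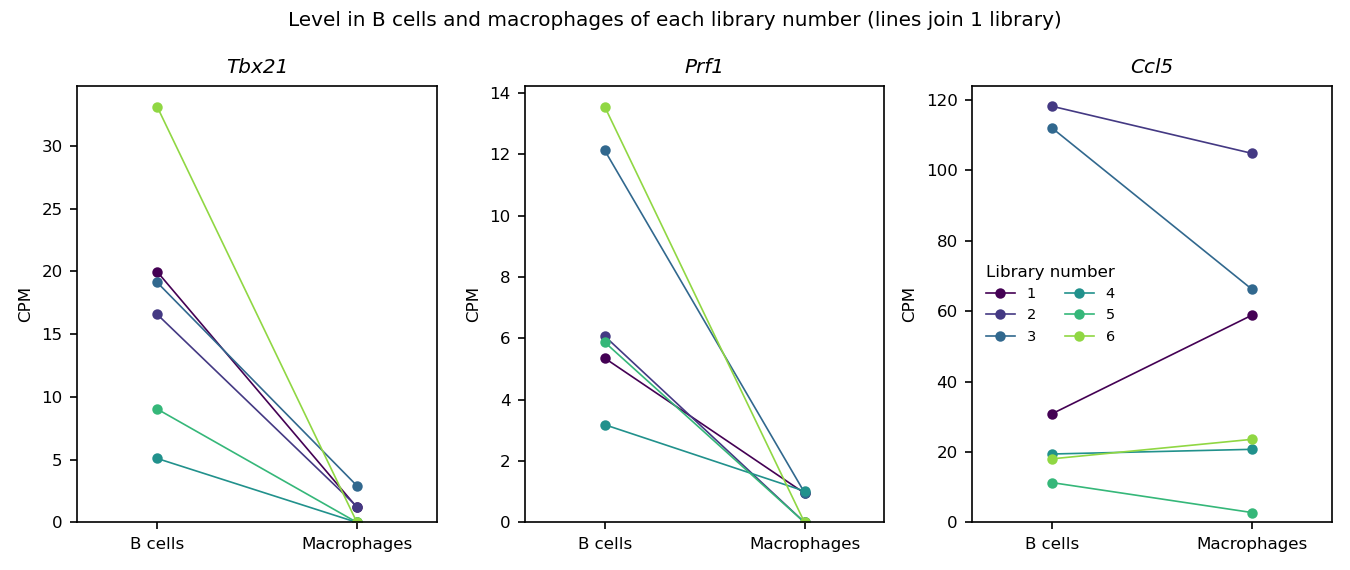
Level (CPM) of *Tbx21*, *Prf1* and *Ccl5* in B cells and macrophages, with a line for each library number. *Tbx21* and *Prf1* are higher in B cells in all 6, and *Ccl5* in 3 of 6.

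Among the genes whose levels were most like the sum of the 10 over 36 points (6 classes in each of 6 library numbers) were *Il2rb* (Pearson r = 0.88), *Cd7* (0.87), *H2-Q6* (0.85), *Trbc1* and *Selplg* (0.84 each), *Evl*, *Stat4*, *Neurl3* and *Txk* (0.81 to 0.83), out of 2398 genes. Points of 1 class share their cell type and points of 1 library share their depth, so these values only describe the pattern. Over the 24 lymphocyte points r was 0.67 to 0.88.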

How the data were processed

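The deposited table holds UMI counts as the authors counted them, not normalized, with genes in rows and barcodes in columns, from 10x Genomics 5′ libraries. Per the labels and the methods of the study, reads were aligned to the human and mouse genomes and those on mm10 (GRCm38) were counted. The processing notes of the submitters name Cell Ranger 2.2 and Seurat 3.0, while the methods of the study give other versions of both. Barcodes with fewer than 500 genes, over 10% mitochondrial UMIs, or a log gene number under 0.8 times the log UMI number were dropped (95 barcodes). Counts were summed per class and divided by the summed UMIs (CPM). Intervals are exact 95% Poisson (CPM), Clopper-Pearson (shares) or conditional binomial (ratios), and only genes averaging 5 CPM or more over a pair of classes enter the background shares, and a count of 0 was given a floor of 3 UMIs. They cover counting error only, since cells are not replicates, and no test was made: library numbers are not tied to samples, and differences between classes are counted by direction over them. Ratios were tested on simulated data of CD8 over CD4 T cells (55538 features), where 76% of 2-fold and 97.5% of 4-fold changes were called and the intervals held the true ratio for 96.5% and 95.5%. The simulated counts had Poisson error alone. Only genes with more CPM over both classes together than *Gzma*, *Gzmb*, *Prf1*, *Klrc1*, *Klrk1*, *Eomes* and *Tbx21* were changed. The shares called therefore do not apply to those genes. Cells were thinned with a fixed seed. Doublets were called with Scrublet (scanpy 1.11.5) at an expected rate of 0.01, which marked 65 barcodes and none in the lymphocyte classes. The number of calls moved with the computing setup, which was fixed for the run. It marked 2 of the 32 B cells with 10 or more *Ccl5* UMIs. Main values keep all cells, and the lack of calls does not show that the lymphocyte classes are free of doublets. Python 3.11.15, numpy 2.4.6, scipy 1.17.1 and matplotlib 3.10.9 were used. The 10 genes, the classes and the other gene lists were chosen with earlier results of these data known. Named beside the 10 genes are up to 4 list genes per role by CPM and any that a count of 5 or fewer required, genes among the 10 most like the sum by Pearson correlation of log2(CPM + 1), and the 10 with the largest ratio within CD8 T cells. The NK receptor division, the *Cd4*- *Cd8*- class, and the genes named by their call were chosen after values were seen. The latter are *Ly6c2*, *Gzmk*, *Cd44*, the lower naive genes and the list genes named beside them within CD8 T cells. A gene of the lists is not reported here.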

Additional observations from a re-analysis of the deposited data

How the results depend on the processing

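Of 120 main results under other settings, 103 stayed within the spread or 1.5 times the main count, and 17 moved. The CD3-negative class had 92 cells with a sum of at least 2, 14 when chosen on *Ncr1*, *Klrb1c* and *Klre1*, and 35 with an NK receptor UMI. The summed log2 ratio of CD8 over CD4 T cells (2.59) was 2.34 with at least 1000 genes per cell, 1.61 with a *Cd3* sum of at least 1, 2.36 without *Cd79a* and *Cd79b* UMIs, and 2.07 without *Ccl5*. That of CD3-negative over CD8 T cells (1.54) was 1.36 with at least 1000 genes, 1.38 with a *Cd3* sum of at least 3, 0.79 with a sum of at least 2, 1.86 with at least 5, 1.89 when chosen on the other 9 genes, 2.18 on *Ncr1*, *Klrb1c* and *Klre1*, 2.16 with an NK receptor UMI, 1.66 as a mean over cells, 1.76 with libraries weighted equally, and 2.21 without *Ccl5*. The settings without *Ccl5* and with an NK receptor UMI were chosen after seeing the data. The log2 ratio of *Klrd1* in CD3-negative over CD8 T cells turned to -0.11 with a sum of at least 2, and *Klrk1* in CD8 over CD4 T cells was not separated under 3 settings, *Klrd1* in CD3-negative over CD8 T cells under 2 others and *Tbx21* under 6. The cause was not tested. Leaving out 1 library number gave 49 to 53 CD3-negative, 87 to 134 CD8 and 67 to 114 CD4 T cells. The number of the 10 genes that were higher was then 4 to 6 for CD8 over CD4 T cells, 7 to 9 over B cells, 9 to 10 over macrophages, and 6 to 9 for CD3-negative over CD8 T cells. The summed log2 ratios were 2.27 (without library number 2) to 3.10 (without 3) and 1.26 (without 3) to 1.96 (without 1). Such counts were not made where cells or libraries are averaged, which gives no interval. No paired analysis was possible because each genotype and time has 1 library, so that none of these groups was compared, and class differences within library numbers were counted by direction without a test. Of the 10 genes, *Gzmb*, *Eomes* and *Tbx21* had the fewest UMIs in CD8 T cells (6, 3 and 3), and the part of depth in these counts was not tested.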

Other observations

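*Prf1* and *Tbx21* varied among the B cells with some of the genes examined, which were chosen after values were seen, and no test was made. *Prf1* was at 9.81 CPM in the 1183 B cells with a UMI of *Zbtb32*, a repressor of B-1 and memory B cell responses, and at 4.80 CPM in the 1918 without (log2 ratio 1.03, 0.52 to 1.56, higher in 6 of 6 library numbers). It was at 11.6 against 5.95 CPM with and without *Spn* (CD43), higher in 4 of 6. With and without *Ighd*, the heavy chain gene of IgD, it was at 5.31 against 8.35 CPM, higher in 1 of 6. *Prf1* was also higher with *Itgax* (15.9 against 6.84 CPM, 3 of 6) and *Bhlhe41* (10.4 against 6.43 CPM, 4 of 6). It was not separated with *Fcer2a*, *Cr2* or *Cd5*. *Tbx21* was at 19.6 against 13.4 CPM with and without *Zbtb32* (0.55, 0.22 to 0.87, higher in 4 of 6) and at 13.2 against 18.4 CPM with and without *Ighd*. It was not separated with *Fcer2a*, *Cr2*, *Bhlhe41*, *Cd5*, *Spn* or *Itgax*. The cells with *Zbtb32* were deeper (median 7345 against 4635.5 UMIs), as were those with *Spn* (8630.5 against 5163), *Itgax* (8353.5 against 5525) and *Bhlhe41* (7318.5 against 5295). The part of depth in these values was not tested.

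*Kit*, the stem cell factor receptor, was in 14 of the 35 CD3-negative cells with and 5 of the 26 without NK receptor UMIs. The mast cell genes *Cpa3*, *Tpsb2*, *Mcpt4* and *Fcer1a* were at 0 in all 61 cells.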
